A study of Melospiza melodia with 33 samples.

Results

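Autophagy, the delivery of cytoplasm and worn organelles to the lysosome, and its branch for mitochondria, mitophagy, were followed through 36 listed genes in the blood of wild song sparrows (Melospiza melodia). The genes were taken by symbol from a list made for the pathway, not by their values, but with earlier results of these data known. A gene row was found for 33 of the 36, out of 21141 rows in all. ATG2A, ATG4D and GABARAP had no row under those symbols and were not analysed here. Every comparison tested 32 of the 33. The other, MAP1LC3C, had reads in 16 of 33 libraries, with at most 20 in any library, and did not pass the filter on low counts.

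The data are gene counts from poly(A)-selected RNA of whole blood from 25 free-living adult males at Linesville, Pennsylvania, in 33 libraries. Territorial intrusions were simulated by playing foreign song, recorded at Millbrook, New York (12 libraries, 8 of them from a first and 4 from a second trial), or local song (11 libraries, 7 from a first and 4 from a second trial). A further 10 birds were sampled as a baseline with no trial, and 8 of the tested birds gave a library after each song. Tested birds had numbers from 8421 to 8439 and baseline birds from 8435 to 8450. What the numbers follow is not in the labels used here, and it largely coincides with the split between tested and baseline birds. The 6 recordings were each played to more than 1 bird, so libraries that share a recording are not independent. Stimulus 3 always preceded 4 in a paired bird, and 5 always preceded 6, and there the song, the trial and the recording cannot be told apart.

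Autophagy starts when the ULK kinase complex is released from inhibition by the nutrient sensor mTOR. A lipid kinase complex built around PIK3C3 then marks the membrane on which the autophagosome grows. A pair of ubiquitin-like conjugation systems attach ATG8 proteins to that membrane, and receptors that bind ATG8 proteins bring in the cargo. Maturing mammalian red cells clear their mitochondria by this route with the receptor BNIP3L, whereas bird red cells circulate with a nucleus and mitochondria.

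Libraries held 64.7 to 103.7 M counts and 12766 to 15472 genes with at least 1 count. No 2 files were identical. All 10 erythroid markers with a row had reads, and so did every marker with a row for heterophils, thrombocytes, T cells, B cells and monocytes. The libraries of bird 8439 stood apart. Libraries of the same bird deviated together in 7 birds (r across genes of 0.31 to 0.58), but not in 8439 (r = -0.16). Its library after local song, from a second trial, was below all the other 32 libraries in 11 of the 32 tested genes and above them all in 3. How many of all genes lay at such extremes was not counted. The library also differed as a whole from that after foreign song in the same bird: 15426 against 12781 genes had a count. The labels were kept. Fold changes of the named genes that shift clearly when this bird is left out are given both ways.

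No tested gene of the list passed the threshold of 0.05 on adjusted p in any of the 4 comparisons by edgeR's quasi-likelihood test with Benjamini-Hochberg adjustment over all genes. The background was as sparse: 0% of 11629 genes passed between foreign and local song and between second and first trials, 0% of 11817 between foreign song and baseline, and 0.00847% of 11800, a single gene, between local song and baseline. The values below therefore describe sizes, errors and directions. Standard errors of the 32 genes' log2 fold changes ran from 0.12 to 0.34. An adjusted p above the threshold does not show that groups were alike.

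**Figure D1:**
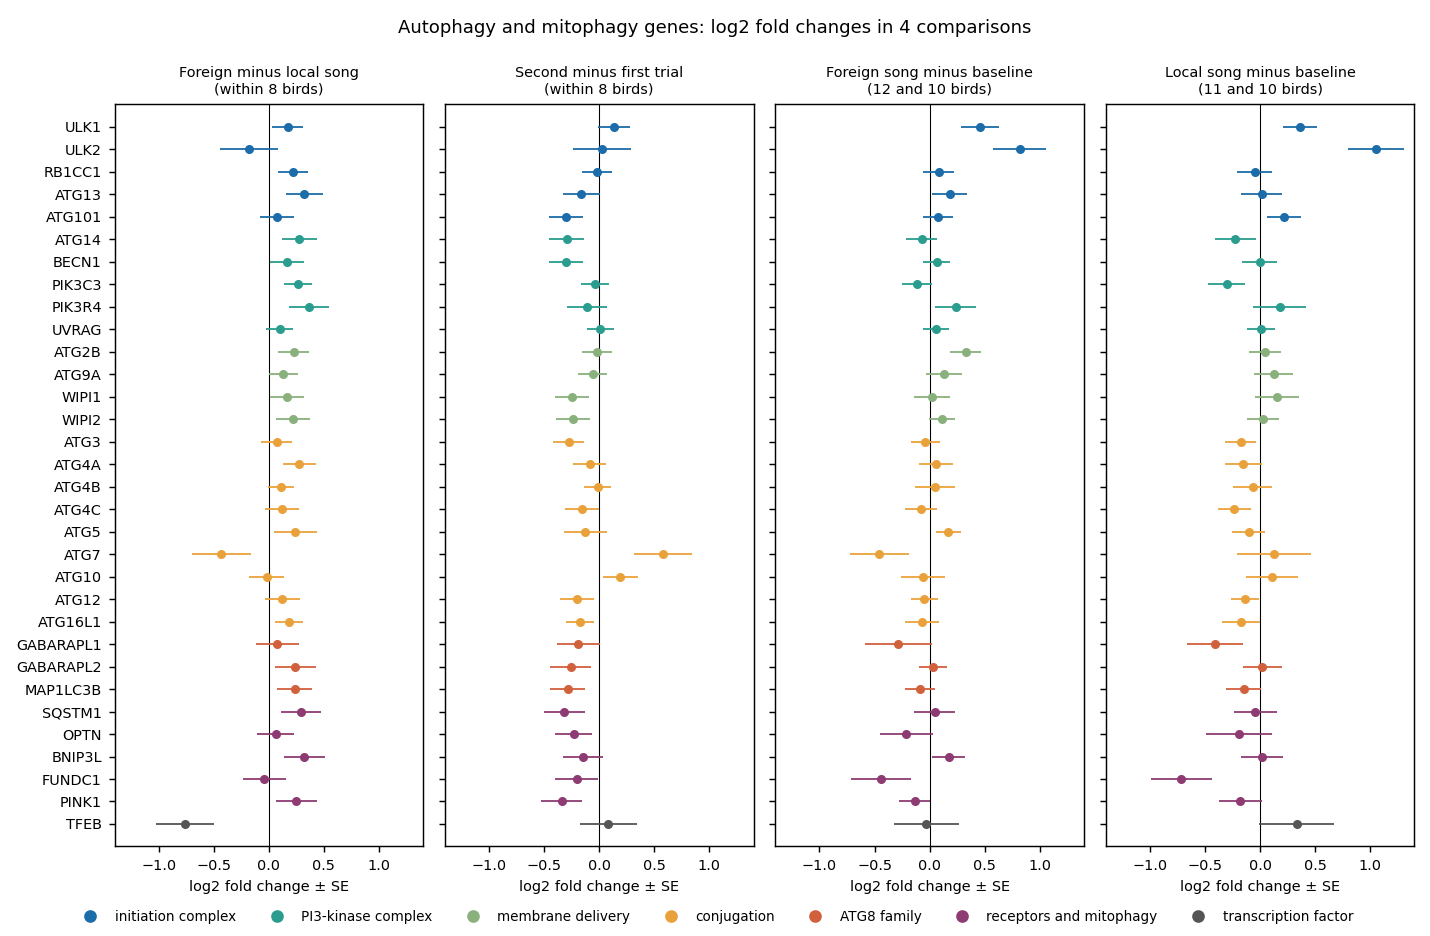
Log2 fold changes (dots, x axis) with their standard errors (bars) for the 32 tested autophagy and mitophagy genes (y axis), coloured by role, in the 4 comparisons. ULK2 lies farthest to the right in both comparisons with baseline, at 0.82 after foreign song and 1.05 after local song, and TFEB farthest to the left between foreign and local song, at -0.76.

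The initiation kinases had the highest fold changes against baseline. ULK2, one of the catalytic kinases that phosphorylate the autophagy machinery, ranged from 1.42 to 4.71 counts per M (CPM) after foreign song (median 2.95), from 1.82 to 5.36 CPM after local song (median 3.96) and from 1.17 to 2.78 CPM in baseline birds (median 1.59). The groups overlapped. In 7 of 12 foreign song libraries and 6 of 11 local song libraries the level was above the highest baseline bird, and all 11 local song libraries were above the baseline median. The raw counts behind these levels ran from 82 to 436 per library.

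ULK2 averaged 3.08 ± 1.19 CPM after foreign song (SD, n = 12) and 1.72 ± 0.548 CPM in baseline birds (SD, n = 10), a log2 fold change of 0.82 ± 0.24 (edgeR adjusted p = 0.687). After local song it averaged 3.58 ± 1.44 CPM (SD, n = 11), a log2 fold change of 1.05 ± 0.25 over the same baseline birds (edgeR adjusted p = 0.366). Both comparisons share the 10 baseline birds and the 8 tested birds that heard both songs, so they are not independent. DESeq2 called the second of these, with a log2 fold change of 1.04 and an adjusted p of 0.0364, in a test that called 0.15% of 13957 genes. It called no member in the other comparisons, where its share of genes called was 0.105% between foreign and local song, 0.0056% between trials and 0.011% between foreign song and baseline. In the other alternatives, fits without 1 bird included, the adjusted p of ULK2 after local song lay between 0.140 and 0.998.

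Between trials ULK2 had no single order. It averaged 3.76 ± 0.939 CPM in second and 2.74 ± 1.21 CPM in first trials of foreign song (SD, n = 4 and 8), but 3.21 ± 1.61 CPM in second and 3.80 ± 1.43 CPM in first trials of local song (SD, n = 4 and 7). Within the 8 paired birds it was higher after foreign song in 2, and the log2 fold change of foreign over local song was -0.18 ± 0.27. In fits without 1 bird that value ran from -0.41 (without bird 8428) to 0.014 (without bird 8429).

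ULK1, the kinase most studied as the trigger of autophagy, ranged from 183 to 587 CPM after foreign song (median 254), from 204 to 426 CPM after local song (median 259) and from 145 to 285 CPM in baseline birds (median 199). The ranges overlapped, with 5 of 12 foreign song libraries and 4 of 11 local song libraries above the highest baseline bird. The log2 fold change over baseline was 0.46 ± 0.17 after foreign song (edgeR adjusted p = 0.687) and 0.36 ± 0.15 after local song (edgeR adjusted p = 0.789). With first-trial libraries alone the first value was 0.23 and the second 0.40. Without the foreign song library of bird 8426, at 587 CPM the highest of all, the first value was 0.32. The summed level of the erythroid markers, which ULK1 followed across birds, had medians of 18511 CPM after foreign song, 18563 CPM after local song and 16634 CPM in baseline birds. Its part in the ULK1 values was not tested.

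The rest of the complex lay closer to baseline. ATG13, the adaptor that joins the kinase to its partners, had log2 fold changes of 0.18 ± 0.16 after foreign and 0.01 ± 0.19 after local song. For RB1CC1, the large scaffold also called FIP200, they were 0.08 ± 0.14 and -0.05 ± 0.16. ATG101, the partner that stabilizes ATG13, gave 0.08 ± 0.14 and 0.22 ± 0.15. The second value was 0.09 without the local song library of bird 8437 and 0.28 without bird 8439. Of the 5 members of the complex, 5 had a log2 fold change above 0 after foreign song and 4 after local song. Of all genes, 42.4% and 49.9% did.

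**Figure D2:**
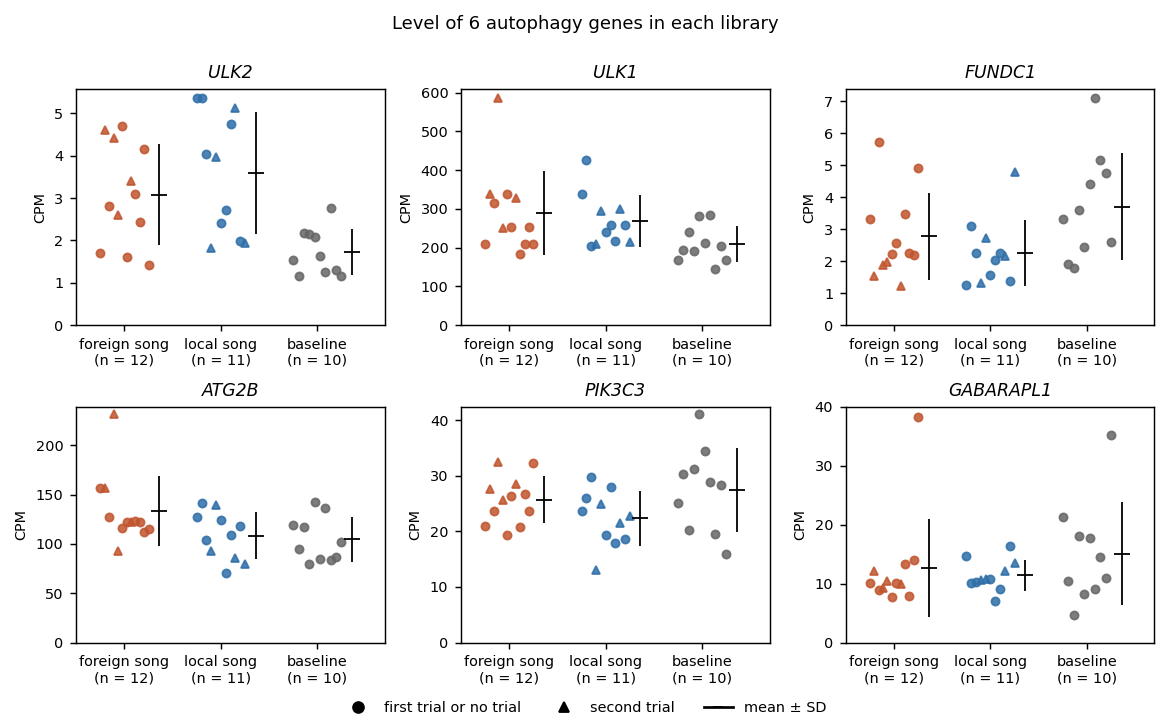
Level in CPM (y axis, from 0) of 6 genes in each library, by group (x axis), with circles for first trials or no trial, triangles for second trials, and the mean ± SD beside each group. ULK2 has 7 foreign and 6 local song libraries above the highest baseline bird at 2.78 CPM, and FUNDC1 has 1 local song library above the baseline median of 3.46 CPM.

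Against baseline, 3 of the 32 genes had an unadjusted p under 0.05 after foreign song (ULK2, ULK1 and ATG2B, all higher), where 7.13% of all genes did, 2.56% on the higher side. After local song there were also 3 (ULK2 and ULK1 higher, FUNDC1 lower), where 5.95% of all genes did, 3.58% on the higher and 2.37% on the lower side. The list as a whole had a median log2 fold change of 0.037 after foreign song, with 18 of 32 above 0, where 42.4% of all genes were above 0 and their median was -0.052. After local song the median was -0.024, with 15 of 32 above 0, where 49.9% of all genes were above 0 and their median was -0.00053. In fits without 1 bird these medians ran from 0.0086 (without bird 8439) to 0.068 after foreign song and from -0.063 to 0.020 after local song. Marker genes of T cells, thrombocytes, monocytes, heterophils and B cells were also counted against baseline. After foreign song they were lower in 7 of 9, 8 of 9, 7 of 8, 5 of 6 and 6 of 10. After local song they were lower in 5 of 9, 5 of 9, 1 of 8, 5 of 6 and 7 of 10. Counts of 6 of 10 after foreign song and 5 of 9 after local song lay near the shares over all genes. Erythroid markers were higher in 6 of 10 after foreign and 5 of 10 after local song. The summed monocyte level ran from 21.2 to 187 CPM after foreign song, from 37.4 to 176 CPM after local song and from 33.7 to 137 CPM in baseline birds. Summed medians of T and B cell markers were not lower. They were 29.8 and 30.4 CPM after foreign song, 27.9 and 29.6 CPM after local song, and 26.7 and 26.6 CPM in baseline birds. Medians of thrombocytes, monocytes and heterophils were lower after foreign song than in baseline birds. Baseline bird 8448 held 118.5 CPM of T cell markers, and the next baseline bird 54.1 CPM. The part of the markers in the result was not tested.

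Among the mitophagy receptors, FUNDC1, an outer-membrane protein that recruits ATG8 proteins to mitochondria under low oxygen in mammalian cells, lay below baseline after both songs. The comparisons share their baseline birds and the 8 tested birds that heard both songs. It ranged from 1.22 to 5.74 CPM after foreign song (median 2.24), from 1.25 to 4.80 CPM after local song (median 2.16) and from 1.78 to 7.09 CPM in baseline birds (median 3.46). The groups overlapped, but 9 of 12 foreign song libraries and 10 of 11 local song libraries were below the baseline median. The log2 fold change over baseline was -0.72 ± 0.28 after local song (edgeR adjusted p = 0.759) and -0.44 ± 0.28 after foreign song (edgeR adjusted p = 0.734). Without bird 8439 the local song value was -0.89 and the foreign song value -0.55. The foreign song value was -0.29 without baseline bird 8447. With first trials alone these values were -0.91 and -0.16.

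FUNDC1 was also the 1 member with an unadjusted p under 0.05 when first trials of foreign and local song were set against each other in different birds, where 3.5% of all genes had one. It averaged 3.34 ± 1.34 CPM in foreign and 1.98 ± 0.643 CPM in local first trials (SD, n = 8 and 7). Within the 8 paired birds the log2 fold change of foreign over local song was -0.04 ± 0.19, with 4 birds on each side. FUNDC2, its paralogue in the wider pathway list, had a log2 fold change of -0.57 ± 0.20 after local song and -0.42 ± 0.25 after foreign song over baseline.

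The other receptor and mitophagy genes lay nearer to 0. Against baseline, PINK1, the kinase that flags damaged mitochondria, had log2 fold changes of -0.14 ± 0.14 after foreign song and -0.18 ± 0.19 after local song. Without baseline bird 8449 the foreign song value was -0.02, and without baseline bird 8450 it was -0.21. BNIP3L gave 0.17 ± 0.15 and 0.01 ± 0.19. SQSTM1, the receptor p62 for ubiquitin-tagged cargo, gave 0.04 ± 0.18 and -0.04 ± 0.19, and OPTN, a ubiquitin-binding receptor that acts with PINK1, gave -0.21 ± 0.24 and -0.19 ± 0.30. Over all 5 receptor and mitophagy genes, 2 were above 0 after foreign song and 1 after local song, where 42.4% and 49.9% of all genes were.

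The genes of the lipid kinase complex and of membrane delivery showed small differences from baseline. ATG2B, a lipid-transfer protein that feeds the growing membrane, ranged from 92.3 to 231 CPM after foreign song (median 122) and from 80.1 to 142 CPM in baseline birds (median 98.6). Of the 12 foreign song libraries 11 were above the baseline median and 3 above the highest baseline bird, and the log2 fold change was 0.33 ± 0.14 (edgeR adjusted p = 0.687). After local song it was 0.04 ± 0.15. PIK3C3, the lipid kinase itself, ranged from 13.1 to 29.8 CPM after local song (median 22.8) and from 15.96 to 41.0 CPM in baseline birds (median 28.5), with 10 of 11 local song libraries below the baseline median and a log2 fold change of -0.30 ± 0.17.

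The conjugation genes, which include the activating enzyme ATG7, the transfer enzymes ATG3 and ATG10 and the proteases of the ATG4 family, had 3 of 9 above 0 after foreign song and 2 of 9 after local song, with medians of -0.048 and -0.13. Of all genes, 42.4% and 49.9% were above 0. ATG7 ranged from 1.14 to 5.20 CPM after foreign song (median 2.64) and from 2.13 to 7.96 CPM in baseline birds (median 3.40), a log2 fold change of -0.46 ± 0.27, or -0.29 without baseline bird 8442. In the ATG8 family, GABARAPL1 ranged from 7.07 to 16.5 CPM after local song (median 10.8) and from 4.68 to 35.2 CPM in baseline birds (median 12.7), and its log2 fold change was -0.41 ± 0.26, or -0.16 without baseline bird 8450. The local song libraries lay inside the baseline range for this gene.

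Between foreign and local song within the 8 paired birds, the list leaned towards foreign song. Of the 32 genes 27 had a log2 fold change above 0, where 49.1% of all genes did, and their median was 0.17, against -0.0060 over all genes. The lean was largest in 2 birds: 28 of 32 genes were higher after foreign song in bird 8428 and 27 of 32 in bird 8439, with medians of 0.51 and 0.90, while the other 6 birds had 8 to 22 of 32. Over all genes kept, the median difference in bird 8439 was -0.28 and that in the other 7 birds lay between -0.014 and 0.020. Without 8439 the count was 23 of 32, with 52.1% of all genes above 0, and the median was 0.084. In first trials alone, which compare different birds, 15 of 32 were above 0, with 48.9% of all genes.

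The log2 fold changes of most cell markers also leaned with the song in the same birds, though not alike in every bird. None of the markers passed the adjusted threshold, and their counts were not made without bird 8439. Erythroid markers were higher after foreign song in 9 of 10, and monocyte, T cell, B cell, heterophil and thrombocyte markers were lower in 8 of 8, 8 of 9, 9 of 10, 5 of 6 and 7 of 10. The summed erythroid level ranged from 13843 to 25904 CPM after foreign song (median 21277) and from 11068 to 26221 CPM after local song (median 18250). The summed monocyte level ranged from 21.2 to 109 CPM after foreign song (median 45.1) and from 37.4 to 176 CPM after local song (median 83.5). In birds 8422 and 8436 the erythroid level was lower after foreign song, and in 8422 and 8430 the monocyte level was higher. In bird 8439 the monocyte level was 26.4 CPM after foreign and 148 CPM after local song. The part of the markers in the result was not tested. In bulk blood, fewer cells of a type and less RNA per cell cannot be told apart.

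**Figure D3:**
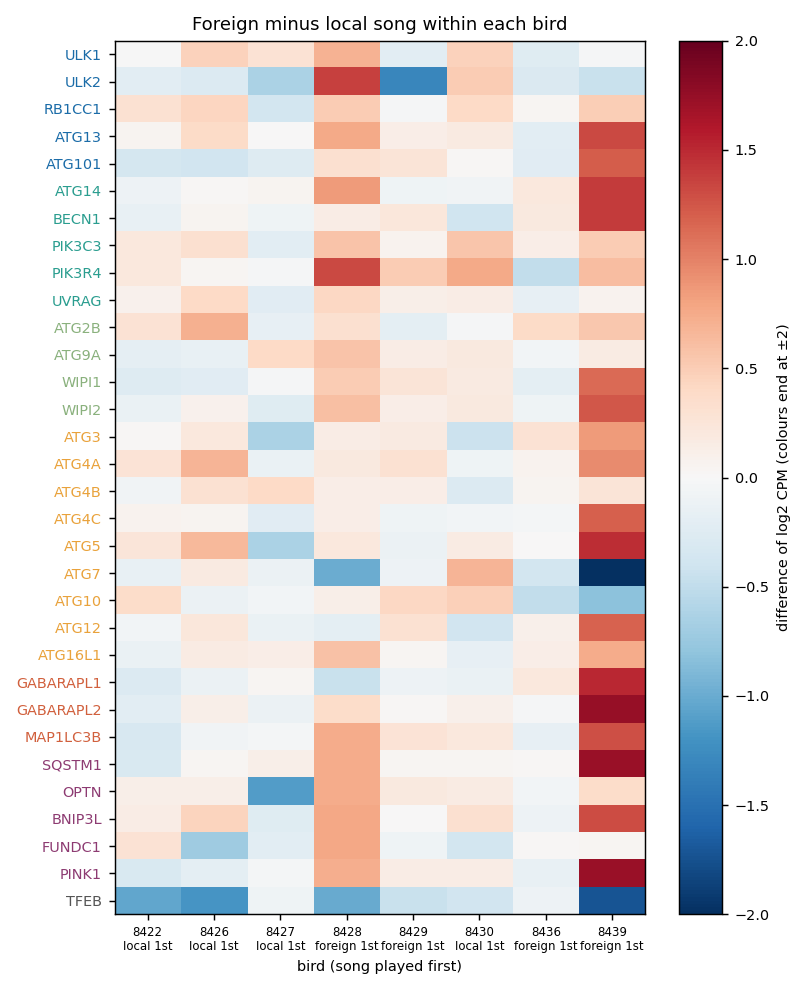
Difference of log2 CPM between foreign and local song (colour, red for higher after foreign song) for each of the 32 genes (rows) in each of the 8 paired birds (columns, with the song played first). Birds 8428 and 8439 are red in 28 and 27 of 32 rows, and the TFEB row is blue in all 8 birds.

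TFEB, the transcription factor that drives lysosomal and autophagy genes in mammals, lay on the other side. It had 0.524 to 1.32 CPM after foreign song (median 0.719) and 0.766 to 2.55 CPM after local song (median 1.25). The ranges overlapped, but within birds it was lower after foreign song in 8 of 8, as were 0.542% of all genes. Means were 0.820 ± 0.301 CPM after foreign and 1.45 ± 0.720 CPM after local song (SD, n = 8 each), a log2 fold change of -0.76 ± 0.26 (edgeR adjusted p = 0.775).

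TFEB was the 1 gene of the 32 with an unadjusted p under 0.05 in this comparison, where 4.18% of all genes had one, 3.37% on the lower side. Without bird 8439 its log2 fold change was -0.61. In first trials, which compare different birds, it was 0.33: the means were 1.24 ± 0.451 CPM in foreign and 0.984 ± 0.489 CPM in local first trials (SD, n = 8 and 7). Second trials also compare different birds. Their means were 0.626 ± 0.0817 CPM for foreign and 1.87 ± 0.799 CPM for local song (SD, n = 4 each). All 4 foreign values were below all 4 local ones, which include bird 8439 at 2.55 CPM. How many of all genes split in this way was not counted.

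On the foreign song side, PIK3C3 averaged 27.0 ± 4.35 CPM after foreign and 22.6 ± 4.95 CPM after local song (SD, n = 8 each) and was higher after foreign song in 7 of 8 birds. Its log2 fold change was 0.27 ± 0.13. PIK3R4, its regulatory subunit, averaged 28.4 ± 5.63 CPM after foreign and 23.8 ± 10.5 CPM after local song (SD, n = 8 each), with a log2 fold change of 0.36 ± 0.18. The same complex also holds the scaffold BECN1, the targeting subunit ATG14 and its alternative UVRAG. All 5 of its genes and all 4 membrane delivery genes were above 0. So were 3 of 3 ATG8 family genes tested, 4 of 5 initiation genes, 4 of 5 receptor and mitophagy genes and 7 of 9 conjugation genes. Of all genes, 49.1% were. ATG13 averaged 198 ± 57.6 CPM after foreign and 163 ± 56.7 CPM after local song (SD, n = 8 each), a log2 fold change of 0.32 ± 0.17 that was 0.18 without bird 8439. On the lower side, beside TFEB and ULK2, stood ATG7, with 2.64 ± 1.12 CPM after foreign and 4.09 ± 3.30 CPM after local song (SD, n = 8 each). It was higher after foreign song in 2 of 8 birds, and its log2 fold change was -0.43 ± 0.26, or -0.18 without bird 8439. In first trials ATG13 and PIK3R4 had values of -0.23 and -0.24.

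Second trials leaned below first trials in the same 8 birds. Of the 32 genes 6 had a log2 fold change above 0, where 54.9% of all genes did, and the median was -0.16, against 0.038 over all genes. Without bird 8439 the count was again 6 of 32 (50.8% of all genes) and the median -0.073. The lean was largest in birds 8428 and 8439, with 4 and 5 of 32 genes higher in the second trial. Their medians were -0.51 and -0.90, while the other birds had 8 to 22 of 32 genes higher. Both birds heard stimulus 5 (foreign song) first and then stimulus 6 (local song), as no other paired bird did. The same differences between their libraries therefore enter the lean towards foreign song. Erythroid markers were lower in second trials in 8 of 10, and monocyte, thrombocyte and heterophil markers were higher in 8 of 8, 8 of 10 and 5 of 6. T cell and B cell markers went the other way, lower in 6 of 9 and 6 of 10. The summed erythroid level ran from 11068 to 25904 CPM in second (median 20161) and from 13843 to 26221 CPM in first trials (median 18877). The summed monocyte level ran from 33.1 to 148 CPM in second (median 95.3) and from 21.2 to 176 CPM in first trials (median 54.7). The summed thrombocyte level had medians of 898 and 913 CPM. The erythroid and thrombocyte medians thus went against the counts of genes, while those of the other cell types went with them. The part of the markers in the result was not tested.

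ATG7 was the 1 gene with an unadjusted p under 0.05 between trials, where 5.73% of all genes had one, 3.78% on the higher side. It averaged 4.16 ± 3.18 CPM in second and 2.58 ± 1.35 CPM in first trials (SD, n = 8 each), a log2 fold change of 0.58 ± 0.26 that was 0.32 without bird 8439, whose second library held 11.7 CPM. BECN1 averaged 41.1 ± 9.51 CPM in second and 49.9 ± 6.54 CPM in first trials (SD, n = 8 each) and was higher in the second trial in 1 of 8 birds. Its log2 fold change was -0.30 ± 0.15, that of ATG101 was also -0.30 ± 0.15, and that of ATG3 was -0.28 ± 0.14. Without bird 8439 the value of BECN1 was -0.16, that of ATG101 -0.18 and that of ATG3 -0.20. ATG10 was at 0.19 ± 0.16, with 0.077 without bird 8439 and 0.29 without bird 8429. ULK1 was at 0.14 ± 0.14, with 0.086 without bird 8436 and 0.22 without bird 8428.

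A wider list of 69 genes around the pathway, of which 65 had a row and 61 were tested, held upstream regulators, further receptors and the fusion and lysosome machinery. None passed the adjusted threshold in either direction in any of the 4 comparisons. Above 0 were 44 of 61 between foreign and local song, 23 between second and first trials, 32 between foreign song and baseline and 25 between local song and baseline. Of all genes, 49.1%, 54.9%, 42.4% and 49.9% were above 0 in the same order. VAMP8, a membrane protein of the fusion step, had a log2 fold change of foreign over local song of -0.48 ± 0.15, with 8.29 ± 3.07 CPM after foreign and 11.2 ± 2.19 CPM after local song (SD, n = 8 each). TAX1BP1, a cargo receptor, was at 0.44 ± 0.19 (0.28 without bird 8439) and DDIT4, an inhibitor of mTOR signalling, at -0.47 ± 0.20 in the same comparison.

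In second over first trials, MCOLN1, a calcium channel of the lysosome, had a log2 fold change of 0.59 ± 0.22 (0.39 without bird 8439) and MUL1, a mitochondrial ubiquitin ligase, of -0.40 ± 0.14. VPS16, a subunit of the tethering complex at the lysosome, was at 0.29 ± 0.13. Over baseline after foreign song, LAMP2, a major lysosomal membrane protein, was at 0.33 ± 0.14, EPG5, a tether for autophagosomes, at 0.39 ± 0.17 and VAMP8 at -0.49 ± 0.25. Over baseline after local song, RPTOR, the mTOR partner that binds its substrates, was at 0.49 ± 0.23 and TBK1, a kinase of cargo receptors, at -0.28 ± 0.16.

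For most genes of the list, birds differed from each other more than a bird differed from itself. The mean absolute difference of log2 CPM between the libraries of 1 bird, divided by that between birds, was below 1 for 28 of 32 genes and for 10525 of 12363 genes kept. The medians were 0.77 for the list and 0.76 for all genes kept. Without bird 8439 they were 0.69 and 0.68, with ATG4B, a protease that primes ATG8 proteins, lowest at 0.34 and WIPI2, which reads the lipid mark, highest at 1.29. Among the 10 baseline birds the SD of log2 CPM had a median of 0.38 over the list, from 0.17 for ATG3 to 0.82 for GABARAPL1, and of 0.60 over all genes kept.

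Levels of several genes followed blood cell markers across birds. In 1 library from each of the 25 birds (first trials and baseline), each gene was correlated with a score of 10 erythroid markers and a score of 44 white cell and thrombocyte markers, each the mean log2 CPM. P-values were adjusted over all 12309 genes that are not markers and both scores, 24618 relations. With the erythroid score 9 of the 32 genes had an adjusted p of r under 0.05, all positive, where 4.83% of all genes did. With the white cell and thrombocyte score 2 of the 32 did, where 10.4% of all genes did. The median r with the erythroid score was 0.30 over the list and -0.039 over all these genes. All values of a library share its depth scaling.

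Both Pearson's r and Spearman's rho passed with the erythroid score for 4 of the 32 genes, where 1.72% of all genes did. For ULK1, r was 0.69 and rho 0.73 (permutation p = 0.00017 and 4e-05, adjusted 0.00645 and 0.00476), and r was 0.64 without the 2 birds farthest from the median score. ULK1 had r of 0.81 in foreign first trials, 0.48 in local first trials and 0.77 in baseline birds. For ATG9A, the membrane protein that seeds the autophagosome, r was 0.81 and rho 0.65 (permutation p = 1e-05, the smallest the resamples can give, and 0.00061, adjusted 0.00126 and 0.0217), with r of 0.61 without the 2 farthest birds.

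ATG13 had r of 0.77 and rho of 0.64 (permutation p = 2e-05 and 0.00065, adjusted 0.00174 and 0.0227), and r of 0.55 without the farthest 2 birds. For PIK3R4, r of 0.75 and rho of 0.59 (permutation p = 0.00017 and 0.00233, adjusted 0.00645 and 0.0478) became an r of 0.42 without them. PINK1 passed by r alone, at 0.62, with rho of 0.57 (permutation p = 0.00226 and 0.00361, adjusted 0.0363 and 0.0612), and had r of 0.26 without them. The relation of PINK1 thus rested largely on those birds, which are baseline birds 8450 and 8448, with the lowest erythroid scores at 9.49 and 9.93. WIPI2, GABARAPL2, WIPI1 and BNIP3L also passed by r alone. Their rho was 0.44, 0.33, 0.32 and 0.37 (permutation test, adjusted p = 0.208, 0.392, 0.401 and 0.309). Without the same birds their r was 0.40, 0.30, 0.27 and 0.30. By group, r of ATG9A was 0.53 in foreign first trials, 0.29 in local first trials and 0.90 in baseline birds. In the same order it was 0.47, 0.15 and 0.92 for ATG13 and 0.40, 0.40 and 0.87 for PIK3R4. For these genes the relation was strongest in baseline birds, which include the 2 farthest.

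TFEB and ATG101 passed by both measures with the white cell and thrombocyte score, where 6.43% of all genes did. TFEB followed it, with r of 0.76 and rho of 0.81 (permutation p = 2e-05 and 1e-05, the second being the smallest the resamples can give, adjusted 0.00174 and 0.00239). Its r was 0.73 without the 2 farthest birds, 0.88 in foreign first trials, 0.78 in local first trials and 0.81 in baseline birds. ATG101 ran opposite to it, with r of -0.66 and rho of -0.60 (permutation p = 0.00056 and 0.00194, adjusted 0.0144 and 0.0425), and r of -0.51 without the 2 farthest birds. The r between both scores was -0.26.

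**Figure D4:**
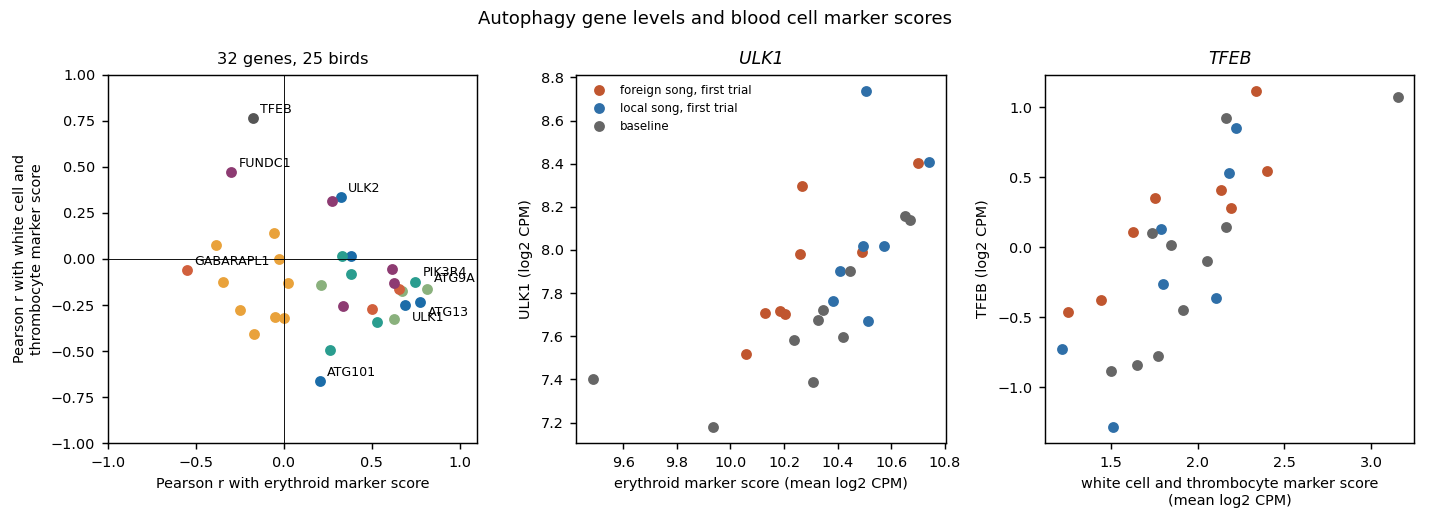
Left, Pearson's r of each of the 32 genes with the erythroid score (x axis) and the white cell and thrombocyte score (y axis) over 25 birds. Middle and right, ULK1 against the erythroid score and TFEB against the white cell and thrombocyte score (all in log2 CPM), 1 point a bird coloured by group; r is 0.69 for ULK1 and 0.76 for TFEB.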

How the data were processed

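The deposited files hold whole-number counts per gene, 1 file per library, which were used as the authors deposited them and treated as not normalized. The submitters' processing notes name fastp (read trimming) and STAR (alignment); not given in the sources used here are their versions, the counting program, strand setting, annotation and genome build. Without the strand setting, reads of WIPI1 and ATG16L1, the 2 list genes that overlap another annotated gene, may be shared. All 33 list genes with a row were matched by symbol to the RefSeq table of assembly bMelMel2.pri. No transcript lengths were used, so levels are compared between samples and not between genes.

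Groups came from the labels. The 16 libraries of the 8 birds with both songs went into 1 model with terms for bird (the block), song and trial, which gave the foreign minus local and the second minus first trial contrasts. The contrasts with baseline came from models of 1 song and the baseline birds. The bird numbers in the labels were taken to pair libraries of the same animal. Deviations from the song by trial means had a mean own-pair r of 0.42 over the 8 birds. In bird 8439 the own-pair r was -0.16, and in the other 7 it ran from 0.31 to 0.58. The tests used edgeR 4.0.16 under R 4.3.3, with filterByExpr (minimum count 10, minimum total 15), TMM scaling, robust dispersions, the quasi-likelihood test and Benjamini-Hochberg adjustment over all genes tested, threshold 0.05. The step was tested on simulated counts without bird effects or shared recordings, a simpler setting than these data. CPM uses TMM over all 33 libraries and log2 CPM a prior count of 1. Standard errors were derived from each log2 fold change and its F statistic and restate the test.

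The members and lists were chosen with earlier results of these data known. Named were, in each comparison, the members past the threshold, the 3 of smallest p in each direction with average log2 CPM of at least 0, and 3 genes of the wider list, beside accounts by role. The correlations with marker scores (100000 permutation resamples, Benjamini-Hochberg over all genes but the markers and both scores) were added after the comparisons were seen. Alternatives were DESeq2 1.42.0, limma-voom (limma 3.58.1), other scaling and filters, first trials alone, no bird block, and fits without bird 8439 or without each bird in turn.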

Additional observations from a re-analysis of the deposited data

Results flagged for a closer look

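Values were looked at again where the lowest or highest bird of a group lay far from its nearest neighbour for the width of the group, a test that chance trips in about 1 of 20 groups. Among the 10 baseline birds this held for 5 of 32 genes, and in each the low value was that of bird 8450: 14.9 CPM for ATG14, 6.69 CPM for PIK3R4, 55.4 CPM for WIPI2, 84.5 CPM for GABARAPL2 and 41.5 CPM for MAP1LC3B. The next lowest baseline birds had 24.0, 16.9, 83.1, 130 and 65.5 CPM for the same genes. The rule was applied only to the 32 tested genes, so no share over all genes is given here or below. Bird 8450 also had the lowest erythroid marker score. Its part in these values was not tested.

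In second minus first trial differences of log2 CPM, 10 of 32 genes had such a bird, and 9 of the 10 were bird 8439. Its values were -1.21 for ATG101, -1.39 for BECN1, -1.19 for ATG4C, 2.60 for ATG7, -1.18 for ATG12, -1.50 for GABARAPL1, -1.74 for GABARAPL2, -1.73 for SQSTM1 and -1.73 for PINK1. Bird 8428 gave the remaining value, -0.70 for ULK1, where the other 7 birds ran from -0.0083 upwards. Whether the labels of the libraries of 8439 are right was not tested.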

How the results depend on the processing

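The 36 named values were recomputed 792 times. Direction and side of the threshold held in 785. Most of these come from fits without 1 bird, which share nearly all libraries, and the fit without bird 8439 is counted again among them. No named value passed the threshold in the main fits, so the side of the threshold could change only by a new call. Members called stayed at 0 in every comparison and alternative but 1: DESeq2 called 1 between local song and baseline, ULK2 (log2 fold change 1.04, adjusted p = 0.0364). The cause was not tested. DESeq2 called 14 genes of all between foreign and local song, 1 between trials, 2 between foreign song and baseline and 21 between local song and baseline, where edgeR called 0, 0, 0 and 1. Signs reversed in 6 values, none of which passed the threshold: 0.014 for ULK2, foreign over local song, without bird 8429 (-0.41 to 0.014 over fits without 1 bird); 0.044 for PINK1, foreign song over baseline, with limma-voom; and, in first trials alone, where other birds are compared, -0.24 for PIK3R4, -0.23 for ATG13, 0.33 for TFEB and 0.096 for VAMP8. In fits without 1 bird, 0 members were called. Members above 0 then numbered 23 to 29 between foreign and local song, 5 to 8 between trials, 16 to 20 between foreign song and baseline and 10 to 17 between local song and baseline. Without the replicate block (bird), 0 members were called between songs and 0 between trials, and 26 and 6 of 32 were above 0. Depth limits ULK2, FUNDC1, ATG7 and TFEB most, which have few counts. The 8 pairs, the recordings shared between birds and bird 8439 limit the comparisons of songs and trials.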
